A study of Mus musculus with 48 samples.

Results

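The genes described here are 4 fibroblast growth factor (FGF) ligand genes, Fgf4, Fgf8, Fgf15 and Fgf17, and the 4 FGF receptor genes Fgfr1, Fgfr2, Fgfr3 and Fgfr4, taken as the rows of the deposited RNA-seq table that carry those symbols. They are 8 of 48321 genes in the table, and all 8 were among the 16179 genes that were tested. The cells were male R1 embryonic stem cells of strain 129SV, an established mouse line. The dKO line has both Mll3 and Mll4 knocked out, the dCD line carries catalytically deficient Mll3 and Mll4, and the WT line is wild type, with 3 polyadenylated RNA-seq libraries each out of 48 samples in the series. Cells of all 3 lines grew without serum in 2i+LIF medium, which holds the MEK inhibitor PD0325901 and the GSK3b inhibitor CHIR99021, so every library comes from cells in which the kinase step below the FGF receptors was inhibited. Each genotype is represented by 1 line, and nothing in the labels tells whether its replicates came from separate cultures. The p-values measure only how far these libraries vary, which may be technical, and an effect of the line cannot be told apart from that of its genotype.

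FGF ligands are secreted proteins that bind receptor tyrosine kinases at the cell surface together with heparan sulfate chains. The active receptor signals through the docking protein FRS2, the adaptor GRB2 and the RAS activators SOS1 and SOS2 to RAF, MEK and ERK, and ERK activity switches on inhibitors of the same pathway such as the Sprouty proteins. In mouse embryonic stem cells FGF4 is the main ligand that the cells make for themselves, and its signal through FGFR1 and FGFR2 favours exit from the naive state and, in the inner cell mass, the primitive endoderm fate. MLL3 and MLL4, encoded by Kmt2c and Kmt2d, monomethylate histone H3 at enhancers.

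The start regions of Fgf4, of its upstream neighbour Fgf3 and of Fgfr2 are shown because Fgf4 and Fgf3 were both lower in dKO cells and because Fgfr2 had the largest change of any receptor gene. The sequences are from RefSeq (assembly GRCm38.p6), run 5′ to 3′ on the gene's strand, and cover 250 bases before and 50 bases from the annotated start. Of the 8 genes, 4 matched the promoter table: Fgf4, Fgfr2, Fgfr3 and Fgfr4. The motif GGGCGG (the GC box), the motif CCAAT (the CCAAT box), the motif TATAAA (the TATA box) and its variant TATATA were searched on both strands, and capitals mark a match. The Fgf4 window lies at chr7:144861136-144861435 on the plus strand, the Fgf3 window at chr7:144838362-144838661 on the plus strand and the Fgfr2 window at chr7:130266759-130267058 on the minus strand.
Fgf4: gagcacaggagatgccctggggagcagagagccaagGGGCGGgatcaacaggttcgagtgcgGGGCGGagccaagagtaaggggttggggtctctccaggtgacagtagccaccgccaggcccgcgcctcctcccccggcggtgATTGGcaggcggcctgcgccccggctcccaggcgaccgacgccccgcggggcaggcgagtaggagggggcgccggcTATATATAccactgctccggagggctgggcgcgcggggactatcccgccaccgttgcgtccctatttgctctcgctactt
Fgf3: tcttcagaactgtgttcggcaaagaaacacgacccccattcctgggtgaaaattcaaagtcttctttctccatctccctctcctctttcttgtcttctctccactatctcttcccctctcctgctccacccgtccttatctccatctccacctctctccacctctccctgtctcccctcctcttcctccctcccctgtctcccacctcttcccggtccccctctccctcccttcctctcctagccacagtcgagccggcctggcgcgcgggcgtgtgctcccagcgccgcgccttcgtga
Fgfr2: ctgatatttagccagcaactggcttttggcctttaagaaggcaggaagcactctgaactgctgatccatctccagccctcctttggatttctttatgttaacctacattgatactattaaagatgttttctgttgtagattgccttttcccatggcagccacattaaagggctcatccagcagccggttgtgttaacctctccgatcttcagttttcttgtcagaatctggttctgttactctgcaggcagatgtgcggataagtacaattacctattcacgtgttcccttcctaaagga
The Fgf4 window holds 2 matches of GGGCGG, 1 of CCAAT, which is on the other strand, and 2 of TATATA that overlap each other. No match of the 4 motifs stands in the Fgf3 or the Fgfr2 window. Of 32851 promoters of the same length, 35.7% hold GGGCGG, 37.4% hold CCAAT, 13.6% hold TATAAA and 5.67% hold TATATA. The share of G and C was 69.7% in the Fgf4 window, 59.3% in the Fgf3 window and 43.7% in the Fgfr2 window, against a median of 52.7% over all promoters.

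Libraries held 21090624 to 56249770 reads as recovered from the deposited values, and the median tested gene had 350 to 913 reads. Chi-square values per degree of freedom were 1.58 to 4.39 for pairs of replicates, so that no library was a copy of another, and the highest value was between dCD replicates 2 and 3. Kmt2c was at 7.44 to 8.0 TPM (a level that is corrected for gene length and library size) in dKO libraries, against 19.7 to 21.9 TPM in WT libraries. Kmt2d was at 80.5 to 84.8 TPM in dKO libraries, against 65.2 to 67.4 TPM in WT libraries, and so was not lower in the line labelled as its knockout. Which parts of these genes were edited is not given in the sources used here, so RNA level is no check of the edit. Of the 12 naive embryonic stem cell markers, all were tested, and their summed level was 7256 to 7318 TPM in dKO, 6601 to 6817 TPM in dCD and 9187 to 9283 TPM in WT libraries. By the rule given below, 2 were higher and 9 lower in dKO than in WT cells, where 43.4% of all tested genes rose and 28.4% fell. In dCD cells 0 were higher and 11 lower, where 28.9% of all tested genes rose and 29.5% fell. In bulk RNA, fewer cells of a type and less RNA per cell cannot be told apart.

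In dKO cells Fgf4 and Fgf8 were lower than in WT cells, Fgf15 and Fgf17 were higher, and Fgfr1 and Fgfr2 were higher by smaller factors. The difference of Fgf8 was lost without some single libraries and that of Fgfr1 with median-ratio scaling, as given below. In dCD cells the ligand genes stayed within 1.28-fold of WT cells, while Fgfr2 was 4.15-fold higher and Fgfr1 1.47-fold higher. All 8 genes differed between dKO and dCD cells. A gene was called at an adjusted p under 0.05 (limma on log2(TPM + 1), Benjamini-Hochberg over all tested genes). By that rule 6 of 8 genes were called in dKO against WT cells, where 71.8% of all tested genes were called, 6 of 8 in dCD against WT cells, where 58.4% were, and 8 of 8 in dKO against dCD cells, where 69.3% were. Without dCD replicate 1 the count in dCD against WT cells was 3 of 8. With at least a 2-fold change on the fitted scale as well, the counts were 3 of 8 against a background of 13.9%, 1 of 8 against 6.94%, and 4 of 8 against 11.0%. The libraries of the groups compared did not overlap for 7 of 8 genes in dKO against WT cells (74.4% of all tested genes), for 5 of 8 in dCD against WT cells (63.5%) and for 8 of 8 in dKO against dCD cells (73.1%). All 8 genes passed the moderated F test of any difference among the 3 lines, as 82.6% of all tested genes did. The shares of all genes called are so high that a call alone sets a gene apart from few others. The median absolute log2 fold change of the 8 genes was 0.67 in dKO against WT cells, where that of all tested genes was 0.33. It was 0.27 in dCD against WT cells, where that of all genes was 0.21, and 0.89 in dKO against dCD cells, where that of all genes was 0.30. In dKO against WT cells, 43.4% of the tested genes rose and 28.4% fell, and in dCD against WT cells 28.9% rose and 29.5% fell. These are the background shares of each direction. With median-ratio scaling between libraries the split of dKO against WT cells was 5636 higher against 5650 lower, in place of 7021 against 4596. Between dKO and dCD cells 6846 genes were higher and 4374 lower in dKO cells, and with the same scaling 5290 were higher and 5531 lower.

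**Figure D1:**
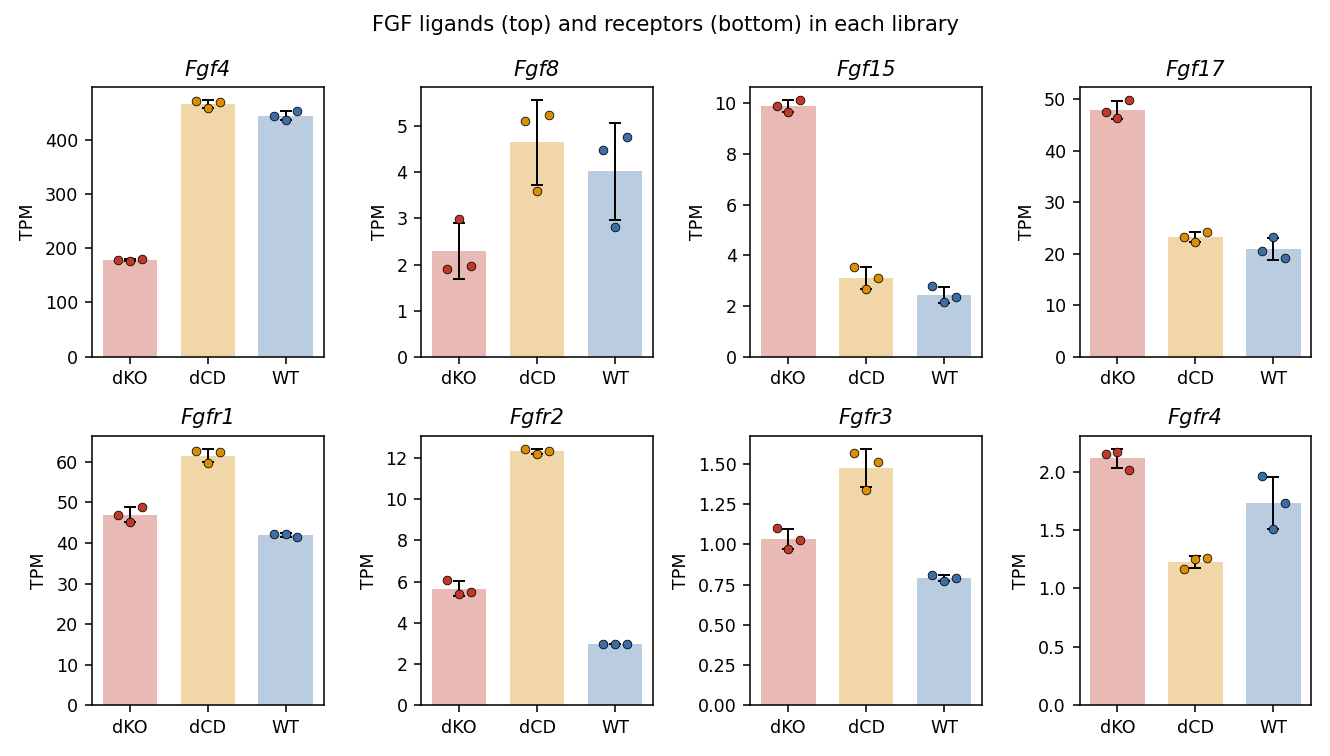
TPM of the 4 ligand genes (top row) and the 4 receptor genes (bottom row) in each library of the dKO, dCD and WT lines. Points are libraries, bars are means and error bars are SD over 3 libraries, and each panel has its own linear axis from 0. Fgf4 was near 178 TPM in dKO libraries and above 436 TPM in all dCD and WT libraries, and Fgfr2 was above 12 TPM in dCD libraries only.

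Fgf4 encodes the ligand that embryonic stem cells supply to themselves, and it had the highest level of the 8 genes in each line. Its level was 179.0, 176.2 and 179.4 TPM in dKO libraries, 471.6, 458.6 and 469.2 TPM in dCD libraries, and 444.5, 436.4 and 453.8 TPM in WT libraries. The dKO libraries lie far below all others, and no dCD library overlaps a WT library. The mean was 178.2 ± 1.73 TPM in dKO cells and 444.9 ± 8.68 TPM in WT cells (SD, n = 3 each), which is 2.50-fold lower, with a log2 fold change of -1.32 (SE 0.021, adjusted p = 1.11e-11). Between dKO and dCD cells it was -1.38 (adjusted p = 1.01e-11). In dCD cells the mean was 466.5 ± 6.90 TPM, 1.05-fold that of WT cells, with a log2 fold change of 0.07 (adjusted p = 0.0183). That small difference missed the threshold without dCD replicate 1 (0.06, adjusted p = 0.0648), without WT replicate 2 (0.05, adjusted p = 0.0745) and with quantile normalization (0.04, adjusted p = 0.159). At 4428 to 25436 reads per library, Fgf4 had the deepest coverage of the ligand genes.

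Fgf8 encodes a ligand best known from the gastrulating embryo and the developing midbrain. Its level was 1.91, 3.0 and 1.96 TPM in dKO libraries, 5.12, 3.59 and 5.24 TPM in dCD libraries, and 4.47, 2.82 and 4.77 TPM in WT libraries. The highest dKO library stands above the lowest WT library, and dCD and WT libraries overlap, while dKO and dCD libraries do not. These values rest on 20 to 40 reads in dKO, 47 to 120 reads in dCD and 41 to 47 reads in WT libraries. Fgf8 was 1.76-fold lower in dKO than in WT cells (log2 fold change -0.60, SE 0.19, adjusted p = 0.0143) and 2.03-fold lower in dKO than in dCD cells (-0.78, adjusted p = 0.00361). The call against WT cells was lost without dKO replicate 1 (-0.52, adjusted p = 0.0506), without WT replicate 1 (-0.53, adjusted p = 0.0510) and without WT replicate 3 (-0.49, adjusted p = 0.0561). The dCD and WT lines did not differ beyond the threshold, with a log2 difference of 0.18 (95% interval -0.24 to 0.60, adjusted p = 0.439).

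Fgf15, the mouse counterpart of human FGF19, encodes a ligand that acts as a hormone from the gut to the liver and is also made in the embryonic brain. Its level was 9.88, 9.66 and 10.13 TPM in dKO libraries, 3.53, 2.67 and 3.10 TPM in dCD libraries, and 2.77, 2.15 and 2.36 TPM in WT libraries. The dKO libraries stand apart from all others, and the dCD and WT ranges overlap. It was 4.07-fold higher in dKO than in WT cells, the largest factor of the 8 genes in that comparison (log2 fold change 1.67, SE 0.093, adjusted p = 6.88e-08), and 3.19-fold higher in dKO than in dCD cells (1.42, adjusted p = 3.08e-07). In dCD against WT cells the log2 fold change was 0.26 (adjusted p = 0.0363), and this call was lost under 11 of 18 alternatives. Among them is the 2-fold threshold, which a change of that size cannot pass. The call was also lost without any 1 dKO replicate (adjusted p = 0.0506 to 0.0515), without dCD replicate 1 (0.18, adjusted p = 0.133), without dCD replicate 3 (0.25, adjusted p = 0.0799), without WT replicate 2 (0.20, adjusted p = 0.123) and without WT replicate 3 (0.24, adjusted p = 0.0815). The reference table places the long noncoding gene Gm26793 across Fgf15. The strand setting of the counting is not given in the sources used here, so reads of the pair cannot be told apart.

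Fgf17 encodes a ligand closely related to that of Fgf8. Its level was 47.5, 46.4 and 49.8 TPM in dKO libraries, 23.2, 22.3 and 24.2 TPM in dCD libraries, and 20.6, 23.2 and 19.1 TPM in WT libraries. Again the dKO libraries stand above all others while dCD and WT libraries overlap. Fgf17 was 2.29-fold higher in dKO than in WT cells (log2 fold change 1.16, SE 0.063, adjusted p = 6.05e-08) and 2.06-fold higher in dKO than in dCD cells (1.01, adjusted p = 2.16e-07). Between dCD and WT cells the log2 difference of 0.14 missed the threshold (95% interval 0.0037 to 0.29, adjusted p = 0.0733), but passed it without WT replicate 2 (0.22, adjusted p = 0.00557). The long noncoding gene Gm38605 overlaps Fgf17 with the same limit on strand.

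Fgfr1 encodes the receptor with the highest level in each line. Its level was 46.8, 45.2 and 48.8 TPM in dKO libraries, 62.7, 59.6 and 62.3 TPM in dCD libraries, and 42.2, 42.3 and 41.4 TPM in WT libraries. The 3 lines form 3 separate ranges, with dCD highest and WT lowest. Fgfr1 was 1.47-fold higher in dCD than in WT cells (log2 fold change 0.54, SE 0.034, adjusted p = 3.85e-07) and lower in dKO than in dCD cells (-0.38, adjusted p = 3.06e-06). The smaller difference between dKO and WT cells, 0.16 (adjusted p = 0.00163), was lost with median-ratio scaling (0.06, adjusted p = 0.134). Gm31288 and Gm16159, both long noncoding, overlap Fgfr1, and the same limit holds.

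Fgfr2 encodes the receptor that, with FGFR1, carries the FGF4 signal in the early embryo and that the trophoblast uses as well. Its level was 6.08, 5.38 and 5.49 TPM in dKO libraries, 12.4, 12.2 and 12.3 TPM in dCD libraries, and 2.95, 2.99 and 2.97 TPM in WT libraries. The ranges of the 3 lines are far apart, with dCD highest, dKO between and WT lowest. Fgfr2 was 4.15-fold higher in dCD than in WT cells (log2 fold change 1.75, SE 0.056, adjusted p = 3.35e-09) and 1.90-fold higher in dKO than in WT cells (0.74, adjusted p = 7.57e-07). Between dKO and dCD cells it was 2.18-fold lower in dKO cells (-1.0, adjusted p = 9.27e-08). Some lists of markers of other cell types moved with Fgfr2 and others did not. Their counts stand against background shares of 28.9% higher and 29.5% lower in dCD cells, and 43.4% higher and 28.4% lower in dKO cells. Of 8 trophoblast markers tested (9 listed), 7 were higher and 0 lower in dCD than in WT cells, and 5 were higher and 1 lower in dKO than in WT cells. Their summed level was 132 to 137 TPM in dKO, 602 to 640 TPM in dCD and 99.2 to 107 TPM in WT libraries, and in dCD libraries most of it came from the keratin genes Krt8 and Krt18. The trophoblast regulator Cdx2 was at 1.20 ± 0.11 TPM in dKO, 4.08 ± 0.61 TPM in dCD and 0.572 ± 0.16 TPM in WT libraries (SD, n = 3 each), while Elf5, which defines trophoblast stem cells, was at or near 0 in all, with a highest mean of 0.0184 TPM in dCD libraries. Cdx2 lies under the 1 TPM minimum in WT libraries and was tested only through the mutant lines. A marker of that kind, in any of these lists, could hardly be called lower than in WT cells. Of 7 primitive endoderm markers tested (8 listed), 4 were higher and 1 lower in dCD than in WT cells, and 3 were higher and 1 lower in dKO than in WT cells, with a summed level of 18.2 to 19.3 TPM in dKO, 29.3 to 31.9 TPM in dCD and 12.1 to 13.3 TPM in WT libraries. Of 8 fibroblast markers tested (12 listed), 7 were higher and 1 lower in dCD than in WT cells, 5 were higher and 1 lower in dKO than in WT cells, and their summed level was 182 to 204 TPM in dKO, 978 to 1061 TPM in dCD and 13.8 to 16.6 TPM in WT libraries, in dKO and dCD libraries mostly from the smooth muscle genes Acta2 and Tagln. Lum, a matrix gene of fibroblasts, had a mean of 0.0347 TPM in dKO, 0 TPM in dCD and 0.0252 TPM in WT libraries. Of 6 primitive streak and mesoderm markers tested (7 listed), 2 were higher and 1 lower in dCD than in WT cells and 2 were higher and 2 lower in dKO than in WT cells. Their summed level was 13.8 to 16.5 TPM in dKO, 30.1 to 32.6 TPM in dCD and 24.4 to 26.2 TPM in WT libraries, so that in dKO cells it lay on the other side of WT cells than Fgfr2 did. Of 6 neural ectoderm markers tested (7 listed), 4 were higher and 2 lower in each mutant line than in WT cells. All 8 formative or primed epiblast markers were tested. Against WT cells 4 were higher and 2 lower in dCD cells, and 2 were higher and 4 lower in dKO cells. Their summed level was 201 to 212 TPM in dKO, 340 to 352 TPM in dCD and 300 to 309 TPM in WT libraries. In dKO cells it thus lay below WT cells, unlike Fgfr2. The part of all these genes in the Fgfr2 result was not tested.

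Fgfr3 encodes a receptor known for its restraint of bone growth, and it was the lowest of the 8 genes in dKO and WT cells. Its level was 1.10, 0.975 and 1.03 TPM in dKO libraries, 1.57, 1.34 and 1.51 TPM in dCD libraries, and 0.808, 0.770 and 0.790 TPM in WT libraries. All WT libraries lie under the 1 TPM minimum, so the gene was tested only through the other lines, and the 3 ranges do not overlap. It was 1.87-fold higher in dCD than in WT cells (log2 fold change 0.47, SE 0.092, adjusted p = 0.00149). Between dKO and WT cells the log2 difference of 0.19 missed the threshold (95% interval -0.02 to 0.39, adjusted p = 0.0968). Between dKO and dCD cells it was -0.28 (adjusted p = 0.0197), which was lost without dKO replicate 2 (-0.26, adjusted p = 0.0594), without dCD replicate 1 (-0.25, adjusted p = 0.0635), without dCD replicate 3 (-0.27, adjusted p = 0.0565) and with quantile normalization (-0.20, adjusted p = 0.0701). The values rest on 36 to 184 reads per library.

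Fgfr4 encodes the receptor that, with the co-receptor beta-Klotho, takes up the FGF15 signal in liver. Its level was 2.15, 2.17 and 2.02 TPM in dKO libraries, 1.17, 1.25 and 1.26 TPM in dCD libraries, and 1.96, 1.51 and 1.73 TPM in WT libraries. Here dCD is the lowest line and dKO the highest, with no overlap between any pair of lines. Fgfr4 was the only receptor gene that was lower in dCD than in WT cells by the test, 1.41-fold (log2 fold change -0.29, SE 0.090, adjusted p = 0.0183), and this was lost without dCD replicate 1 (-0.27, adjusted p = 0.0529) and without WT replicate 1 (-0.23, adjusted p = 0.0709). It was 1.72-fold higher in dKO than in dCD cells (0.48, adjusted p = 0.000772). Between dKO and WT cells the difference of 0.19 missed the threshold (95% interval -0.01 to 0.39, adjusted p = 0.0823) and passed it without WT replicate 1 (0.25, adjusted p = 0.0446). At 39 to 76 reads per library it is, with Fgf8, among the shallowest of the 8 genes.

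The order of the levels differed between the lines. In dKO cells Fgf4 was followed by Fgf17 and Fgfr1, whose libraries overlap, and then by Fgf15, Fgfr2, Fgf8, Fgfr4 and Fgfr3, where Fgf8 and Fgfr4 overlap. In dCD cells the order was Fgf4, Fgfr1, Fgf17, Fgfr2, Fgf8, Fgf15, Fgfr3 and Fgfr4, with no overlap between neighbours. In WT cells it was Fgf4, Fgfr1, Fgf17, Fgf8, Fgfr2, Fgf15, Fgfr4 and Fgfr3, and there Fgf8 and Fgfr2 overlap. The 4 ligand genes summed to 238.3 ± 3.04 TPM in dKO, 497.4 ± 8.95 TPM in dCD and 472.3 ± 7.69 TPM in WT libraries (SD, n = 3 each), a sum that Fgf4 dominates.

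The 4 receptor genes summed to 55.8 ± 1.86 TPM in dKO, 76.6 ± 1.89 TPM in dCD and 47.4 ± 0.521 TPM in WT libraries (SD, n = 3 each). Fgfr1 made up 84.2% ± 0.875 of that sum in dKO, 80.4% ± 0.215 in dCD and 88.4% ± 0.439 in WT libraries. The share of Fgfr2 was 10.1% ± 0.638 in dKO, 16.1% ± 0.254 in dCD and 6.26% ± 0.0895 in WT libraries. That of Fgfr4 was 3.79% ± 0.264 in dKO, 1.61% ± 0.0934 in dCD and 3.65% ± 0.458 in WT libraries, and that of Fgfr3 was 1.86% ± 0.0904 in dKO, 1.93% ± 0.111 in dCD and 1.66% ± 0.0385 in WT libraries. The ratio of Fgfr2 to Fgfr1 was 0.120 ± 0.00881 in dKO, 0.200 ± 0.00369 in dCD and 0.0708 ± 0.000875 in WT libraries, and so was highest in dCD libraries. Shares of 1 sum move against each other and were not tested.

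**Figure D2:**
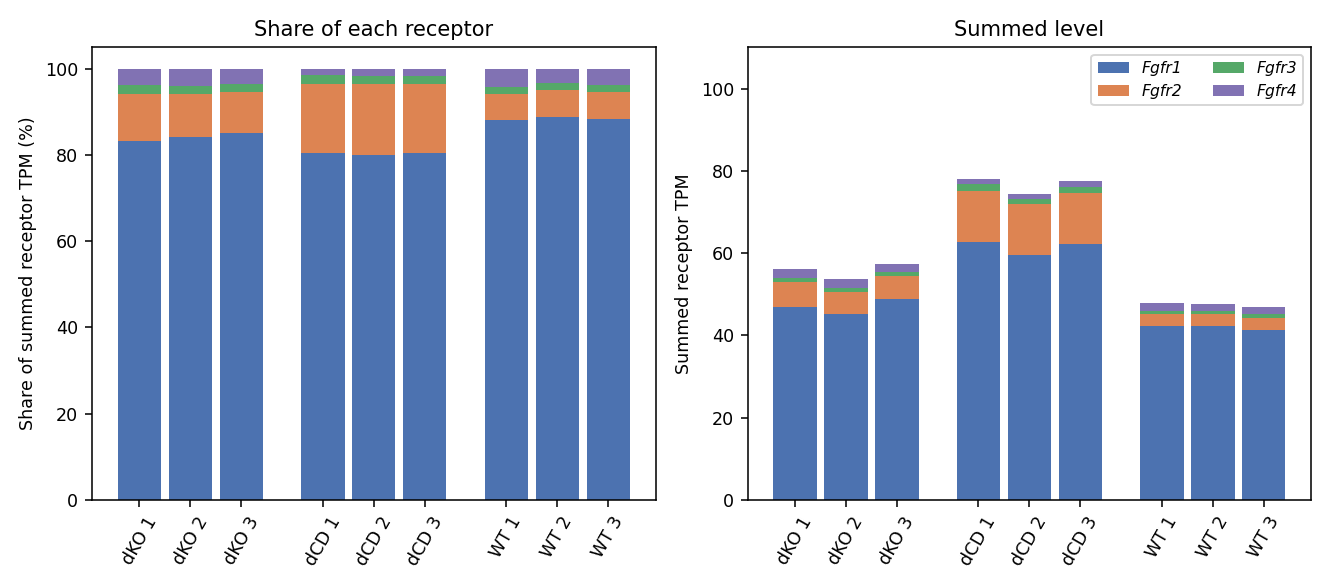
Share of each FGF receptor gene in the summed receptor TPM in percent (left) and the summed TPM itself (right), with 1 stacked bar for each library of the dKO, dCD and WT lines. The Fgfr2 band is widest in dCD libraries, near 16.1%, and narrowest in WT libraries, near 6.26%, and the summed level is highest in dCD libraries.

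Of 18 other FGF family genes listed, 8 passed the filter. Not all of them encode secreted ligands. The product of Fgf11, for example, stays inside the cell. In dKO against WT cells 2 were higher and 3 lower, and in dCD against WT cells 0 were higher and 3 lower. The background shares were 43.4% higher and 28.4% lower in dKO, and 28.9% higher and 29.5% lower in dCD cells. Fgf1, which encodes a ligand that binds all FGF receptors, was at 14.0 ± 0.95 TPM in dKO, 0.778 ± 0.094 TPM in dCD and 1.14 ± 0.26 TPM in WT libraries (SD, n = 3 each), with a log2 fold change of 2.82 in dKO against WT cells (adjusted p = 2.70e-09). All dCD libraries and WT replicate 3 (0.845 TPM) lie under the 1 TPM minimum. Fgf1 was therefore tested only through the dKO line, where it is high. In dCD cells its call of -0.26 (adjusted p = 0.0495) was lost under 12 of 18 alternatives, among them the 2-fold threshold, which a change of that size cannot pass. It was also lost without any 1 library other than WT replicate 3 (adjusted p = 0.0536 to 0.159). Fgf18, a ligand of skeletal and lung development, was at 12.1 ± 1.8 TPM in dKO, 2.20 ± 0.18 TPM in dCD and 1.46 ± 0.67 TPM in WT libraries (2.44 in dKO against WT cells, adjusted p = 9.16e-07). In dCD cells the change of Fgf18, 0.42 (adjusted p = 0.0800), passed without WT replicate 1 (0.55, adjusted p = 0.0451), without WT replicate 3 (0.55, adjusted p = 0.0421) and with voom on recovered reads (0.86, adjusted p = 0.0212).

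On the lower side, Fgf10, the ligand that directs limb and lung budding, was at 0.338 ± 0.013 TPM in dKO, 5.11 ± 0.45 TPM in dCD and 8.63 ± 0.35 TPM in WT libraries. All dKO libraries lie under the 1 TPM minimum, so Fgf10 was tested only through the dCD and WT lines. It was called in both mutant lines, at -2.85 in dKO cells (adjusted p = 2.95e-10) and -0.66 in dCD cells (adjusted p = 3.27e-05). Fgf3, a ligand of inner ear development, was at 3.37 ± 0.34 TPM in dKO, 12.4 ± 0.98 TPM in dCD and 13.5 ± 0.91 TPM in WT libraries (-1.74 in dKO against WT cells, adjusted p = 1.37e-08). Fgf11, whose product stays inside the cell, was lower in both lines, at -0.37 in dKO cells (adjusted p = 0.00473) and -0.52 in dCD cells (adjusted p = 0.000905). Fgf5, the epiblast ligand, was at 1.48 ± 0.26 TPM in dKO, 1.78 ± 0.26 TPM in dCD and 1.69 ± 0.069 TPM in WT libraries and was called in neither line, nor were Fgf13 and Fgf22. Without WT replicate 3, Fgf22 passed as lower in dKO cells (-0.53, adjusted p = 0.0260) and in dCD cells (-0.52, adjusted p = 0.0343), and without dCD replicate 1 in dCD cells (-0.50, adjusted p = 0.0485). With median-ratio scaling it passed in dKO cells (-0.46, adjusted p = 0.0418).

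**Figure D3:**
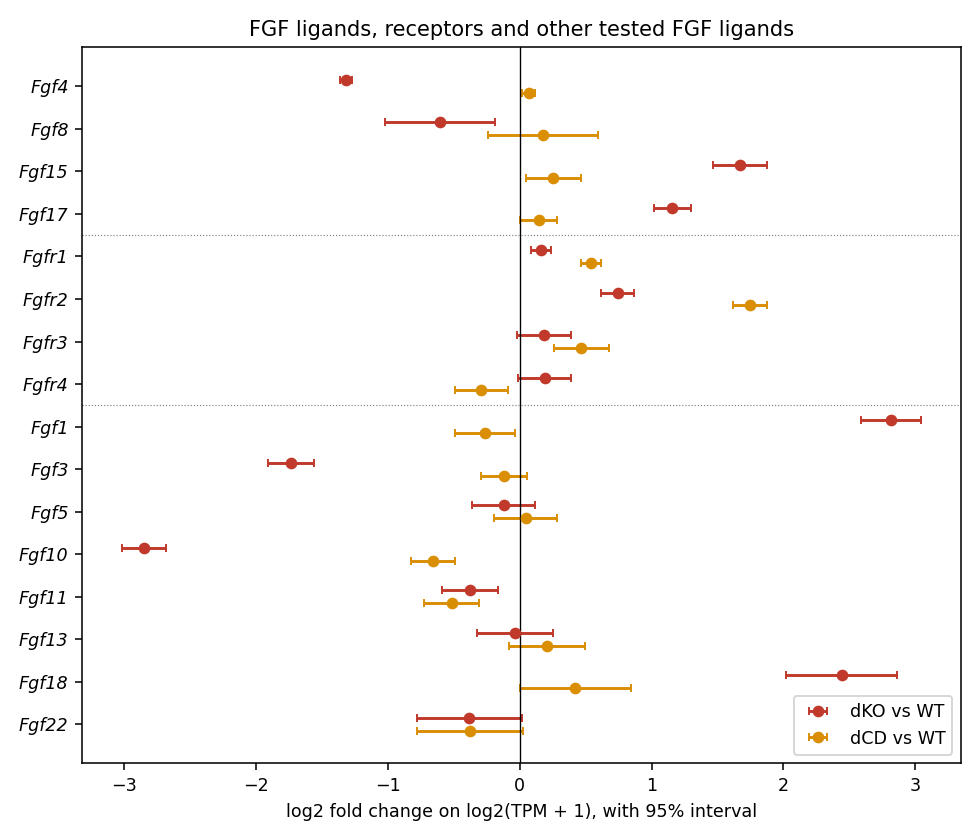
Log2 fold change on the log2(TPM + 1) scale of the 8 FGF ligand and receptor genes and of the 8 other FGF family genes tested, for dKO against WT (red) and dCD against WT (amber). Bars are 95% intervals and dotted lines part ligands, receptors and other family genes. Changes of ligand genes run from -2.85 (Fgf10) to 2.82 (Fgf1) in dKO cells, and the largest change of dCD cells is that of Fgfr2, 1.75.

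Fgf3, Fgf4 and Fgf15 lie next to each other on chromosome 7, followed by Oraov1 and the cyclin D1 gene Ccnd1 (order from RefSeq, assembly GRCm38.p6, by symbol). Within this run dKO cells showed both directions: Fgf3 and Fgf4 were lower, while Fgf15, Oraov1 and Ccnd1 were higher. Ccnd1 was at 210.4 ± 3.38 TPM in dKO, 46.9 ± 0.246 TPM in dCD and 42.1 ± 0.270 TPM in WT libraries (SD, n = 3 each), a log2 fold change of 2.29 in dKO against WT cells (adjusted p = 6.96e-13) and 0.15 in dCD against WT cells (adjusted p = 0.000172). Oraov1 changed by 0.29 in dKO against WT cells (adjusted p = 0.000864). Farther out, Ppfia1 (0.12, adjusted p = 0.00468) and Fadd (0.33, adjusted p = 0.00135) were higher in dKO than in WT cells, while Ano1 (-0.12, adjusted p = 0.346) and Tpcn2 (0.15, adjusted p = 0.0739) missed the threshold. Ppfia1 lost its call with median-ratio scaling (0.02, adjusted p = 0.497), and Tpcn2 passed without WT replicate 1 (0.19, adjusted p = 0.0421). Tpcn2 was lower in dCD than in WT cells (-0.52, adjusted p = 9.40e-05). For the other ligand and receptor genes, up to 3 protein-coding genes on each side were counted in dKO against WT cells. Of those tested, 3 were higher and 2 lower of 5 at Fgf8, and 4 higher and 0 lower of 5 at Fgf17. At the receptor genes 2 were higher and 2 lower of 4 at Fgfr1, 3 higher and 1 lower of 4 at Fgfr2, 4 higher and 0 lower of 5 at Fgfr3, and 4 higher and 1 lower of 5 at Fgfr4. The background shares were 43.4% higher and 28.4% lower.

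**Figure D4:**
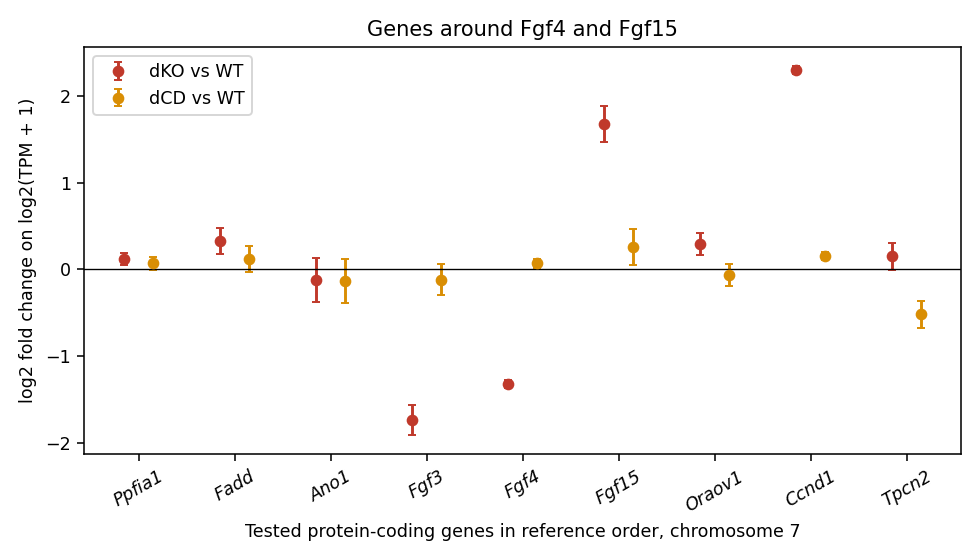
Log2 fold change on the log2(TPM + 1) scale, with 95% intervals, of 9 tested genes in their order along chromosome 7 around Fgf4 and Fgf15, for dKO against WT (red) and dCD against WT (amber). In dKO cells Fgf3 and Fgf4 lie at -1.74 and -1.32, while Fgf15 and Ccnd1 lie at 1.67 and 2.29, and in dCD cells the same 4 genes lie between -0.12 and 0.26.

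The genes whose pattern over the 9 libraries was most like that of each ligand or receptor gene were found by the root mean square difference of log2(TPM + 1), with each gene's own mean taken off. The value nearest to Fgf4 was that of Nr4a1, an orphan nuclear receptor gene, at 0.0461, followed by Mapt and Anxa11, where the median over all tested genes was 0.710. Nr4a1 was at 34.0 TPM in dKO, 89.4 TPM in dCD and 83.6 TPM in WT libraries (means). Nearest to Fgf15 was Hoxc5 (0.0776), to Fgf17 Gne (0.0701) and to Fgf8 Gcm2 (0.156). Hoxc5 was low, at 2.63 TPM in dKO, 0.465 TPM in dCD and 0.126 TPM in WT libraries (means). Among the receptors, Fgfr1 was nearest to Hax1 (0.0393), Fgfr3 to Rhbdf1 (0.0361) and Fgfr4 to Larp1b (0.0438). Nearest to Fgfr2 was Phlda1 (0.0838), at 4.51 TPM in dKO, 10.3 TPM in dCD and 2.47 TPM in WT libraries, followed by the ligand gene Wnt3 (0.0918). Wnt3 was low as well, at 0.992 TPM in dKO, 2.57 TPM in dCD and 0.109 TPM in WT libraries. On this scale the changes of such low genes look smaller than they are. Likeness to Hoxc5 or Wnt3 therefore does not mean equal factors between the lines. The likeness is a description over 9 libraries that fall into 3 lines.

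Of 18 genes tested for co-receptors and modulators at the cell surface, where FGF ligands are held or carried, 10 were higher and 5 lower in dKO than in WT cells, while 43.4% of all tested genes rose and 28.4% fell. In dCD against WT cells 11 were higher and 3 lower, while 28.9% of all genes rose and 29.5% fell. The median log2 fold change of the list was 0.31 in dKO cells, beside 0.10 for all tested genes, and 0.34 in dCD cells, beside -0.01. Fgfbp1, whose product releases FGF ligands from heparan sulfate, was at 17.5 ± 0.63 TPM in dKO, 5.53 ± 0.69 TPM in dCD and 1.08 ± 0.088 TPM in WT libraries (3.15 in dKO cells, adjusted p = 2.38e-10, and 1.64 in dCD cells, adjusted p = 6.71e-08). Cdh2, the N-cadherin gene, whose product binds FGFR1, was at 19.0 ± 0.67 TPM in dKO, 15.6 ± 0.26 TPM in dCD and 4.33 ± 0.37 TPM in WT libraries. Sdc4, a heparan sulfate proteoglycan gene, was lower in dKO cells at 13.2 ± 0.73 TPM and higher in dCD cells at 49.4 ± 1.9 TPM, against 40.4 ± 0.79 TPM in WT cells (-1.55 in dKO cells, adjusted p = 5.02e-10, and 0.28 in dCD cells, adjusted p = 0.000315).

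Among 17 genes of heparan sulfate synthesis and editing, 9 were higher and 5 lower in dKO than in WT cells, and 6 were higher and 4 lower in dCD than in WT cells. These shares lie near those of all tested genes, which were 43.4% higher and 28.4% lower in dKO and 28.9% higher and 29.5% lower in dCD cells. The median was 0.09 in dKO cells and 0.06 in dCD cells, beside 0.10 in dKO and -0.01 in dCD cells for all genes. Sulf1, whose product removes sulfate groups from the chains, was at 46.1 ± 1.4 TPM in dKO, 25.9 ± 0.28 TPM in dCD and 13.1 ± 0.33 TPM in WT libraries (1.74 in dKO cells, adjusted p = 3.98e-11, and 0.93 in dCD cells, adjusted p = 8.43e-09). Hs6st2, whose product adds such groups, was at 1.68 ± 0.24 TPM in dKO, 5.06 ± 0.19 TPM in dCD and 0.116 ± 0.030 TPM in WT libraries (1.26 in dKO cells, adjusted p = 6.36e-07, and 2.44 in dCD cells, adjusted p = 1.11e-08). All WT libraries of Hs6st2 lie under the 1 TPM minimum, so it was tested only through the mutant lines. The related gene Hs6st1, with a far higher level, was lower in both lines, at 72.9 ± 0.95 TPM in dKO and 113 ± 5.4 TPM in dCD libraries, against 127 ± 2.7 TPM in WT libraries.

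Of the adaptor and kinase genes behind the receptor, none was called with a 2-fold change on the fitted scale in dKO or dCD against WT cells. All 24 were tested, and 14 were higher and 7 lower in dKO than in WT cells, and 8 were higher and 7 lower in dCD than in WT cells, with medians of 0.13 in dKO and 0.01 in dCD cells. The background shares were 43.4% higher and 28.4% lower in dKO cells, and 28.9% higher and 29.5% lower in dCD cells. The dCD counts are thus close to the background, while the share higher in dKO cells lies above it. Whether the list differs from all genes was not tested. The largest change in dKO cells was that of Sos2, a RAS activator, at 9.99 ± 0.36 TPM in dKO libraries against 5.00 ± 0.29 TPM in WT libraries (0.87, adjusted p = 2.55e-07). The lowest was Gab1, a docking protein gene, at 125 ± 3.0 TPM in dKO and 172 ± 4.5 TPM in WT libraries (-0.46, adjusted p = 8.19e-08). In dCD cells the ends were Frs2, the docking protein gene next to the receptors (0.54, adjusted p = 1.78e-06), and Pik3r1 (-0.49, adjusted p = 4.05e-05).

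Feedback inhibitors and response genes of the pathway were more often lower than higher in dCD cells. Of 13 tested (15 listed), 2 were higher and 8 lower in dCD than in WT cells, and 4 were higher and 4 lower in dKO than in WT cells, with medians of -0.35 in dCD cells and 0.02 in dKO cells. The background shares were 28.9% higher and 29.5% lower in dCD cells and 43.4% higher and 28.4% lower in dKO cells, with medians of -0.01 in dCD and 0.10 in dKO cells. Etv4, an ETS factor gene that responds to FGF signalling, was at 7.41 ± 0.36 TPM in dKO, 21.6 ± 0.76 TPM in dCD and 86.2 ± 1.8 TPM in WT libraries (-3.37 in dKO cells, adjusted p = 2.30e-12, and -1.95 in dCD cells, adjusted p = 2.15e-10). Spry4, a Sprouty inhibitor gene, was at 21.5 ± 1.9 TPM in dKO, 12.1 ± 0.20 TPM in dCD and 47.2 ± 1.0 TPM in WT libraries (-1.10 in dKO cells, adjusted p = 2.70e-08, and -1.88 in dCD cells, adjusted p = 1.67e-09). Spry2 was also lower in both lines (-0.57 in dKO cells, adjusted p = 4.76e-09, and -0.91 in dCD cells, adjusted p = 5.63e-10). Dusp4, which encodes an ERK phosphatase, was higher in dKO cells, at 19.4 ± 0.66 TPM against 10.5 ± 0.64 TPM in WT cells (0.84, adjusted p = 1.72e-07). Ier3, an early response gene, was higher in dCD cells, at 42.4 ± 3.3 TPM against 20.7 ± 4.1 TPM in WT cells (1.01, adjusted p = 3.68e-05). Between dKO and dCD cells 8 of the 13 genes were higher in dKO cells and 3 lower, while over all 16179 tested genes the counts were 6846 and 4374.

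**Figure D5:**
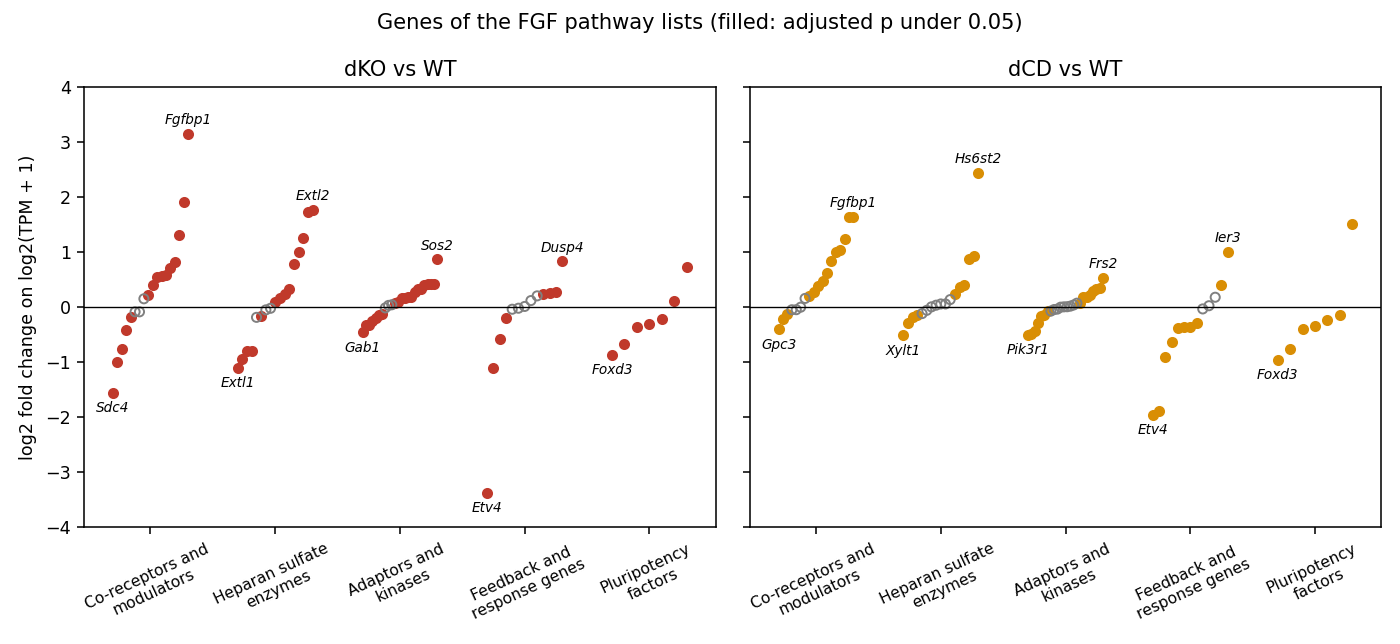
Log2 fold change on the log2(TPM + 1) scale of each tested gene of 5 FGF pathway lists, for dKO against WT (left) and dCD against WT (right). Filled points passed an adjusted p under 0.05, and the outermost gene at each end is named, except at the upper end of the pluripotency factors. Etv4 is the lowest response gene in both lines, at -3.37 in dKO and -1.95 in dCD cells, and Fgfbp1 the highest cell-surface gene, at 3.15 in dKO and 1.64 in dCD cells. In dCD cells Cdh2 lies almost level with Fgfbp1, also at 1.64.

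Of 7 transcription factor genes known to act on Fgf4 or Fgf5 in pluripotent cells, 2 were higher and 5 lower in dKO than in WT cells, and 1 was higher and 6 lower in dCD than in WT cells, with medians of -0.30 in dKO and -0.34 in dCD cells. All tested genes had medians of 0.10 in dKO and -0.01 in dCD cells, with 43.4% higher and 28.4% lower in dKO cells and 28.9% higher and 29.5% lower in dCD cells. Sox2, whose product binds an enhancer of Fgf4 together with that of Pou5f1, was at 774 ± 14 TPM in dKO and 734 ± 28 TPM in dCD cells. It was lower in both lines than in WT cells (-0.67 in dKO cells, adjusted p = 9.18e-09, and -0.75 in dCD cells, adjusted p = 1.13e-08). Fgf4 was 2.50-fold lower in dKO cells and 1.05-fold that of WT cells in dCD cells. The part of the listed factors in the Fgf4 levels was not tested. Foxd3 was lower in both lines by nearly the same amount (-0.86 in dKO cells, adjusted p = 1.75e-08, and -0.95 in dCD cells, adjusted p = 2.20e-08). Otx2, a factor of the formative epiblast, was at 64.4 ± 0.69 TPM in dCD and 21.9 ± 0.76 TPM in WT libraries (1.51, adjusted p = 2.85e-09). In dKO cells Otx2 was at 23.9 ± 1.7 TPM, and its call (0.12, adjusted p = 0.0472) was lost under 14 of 18 alternatives. Among them is the 2-fold threshold, which a change of that size cannot pass. The call was also lost without dKO replicate 1 or 3, any dCD replicate, or WT replicate 1 or 2 (adjusted p = 0.0529 to 0.174) and with median-ratio scaling (0.02, adjusted p = 0.768).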

How the data were processed

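Polyadenylated RNA of dKO, dCD and WT cells was analysed from 1 deposited table of gene expression, and the other assays of the series were not analysed here. The deposited values are TPM made by the authors, with a gene length. HISAT2, featureCounts, DESeq2 and the build mm9 are listed, without versions, per the submitters' processing notes. Not given in the sources used here are the annotation, the strand setting and how multiply matching reads were handled. Reads and depth were recovered by dividing TPM times length by each library's smallest step, which gave whole numbers within 0.01.

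Genes with at least 1 TPM in at least 3 of 9 libraries entered a limma fit (version 3.58.1, R 4.3.3; trended eBayes) of log2(TPM + 1), all 9 libraries in 1 fit, two-sided, with Benjamini-Hochberg adjustment over all 16179 genes and a threshold of 0.05. Fold changes are on that scale, on which a low gene's change looks smaller than it is, while factors are ratios of mean TPM. The fit was tested on simulated data. Other steps used numpy 2.4.6, pandas 2.3.3, matplotlib 3.10.9 and Python 3.11.15. The 8 genes, the pathway and marker lists and the tests were chosen with earlier results of these data known. Named are all 8 genes, at most the 3 highest and 3 lowest called genes per list and contrast, the 3 most similar genes and up to 3 neighbours on each side. The marker genes and Fgf5, Fgf13 and Fgf22 were named outside this rule, after their values were seen. A gene of the transcription factor list is not reported here. Alternatives were the pseudocount, filters, scalings, voom on recovered reads, a replicate block, a 2-fold threshold, only the lines compared and each library left out.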

Additional observations from a re-analysis of the deposited data

Results flagged for a closer look

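For each of the 8 genes the effect against WT cells differed between the dKO and the dCD line, by the direct test of dKO against dCD cells. The comparisons with WT cells share their control libraries. Among the ligand genes the log2 difference, dKO minus dCD, was -1.38 for Fgf4 (adjusted p = 1.01e-11), -0.78 for Fgf8 (adjusted p = 0.00361), 1.42 for Fgf15 (adjusted p = 3.08e-07) and 1.01 for Fgf17 (adjusted p = 2.16e-07). Among the receptor genes it was -0.38 for Fgfr1 (adjusted p = 3.06e-06), -1.0 for Fgfr2 (adjusted p = 9.27e-08), -0.28 for Fgfr3 (adjusted p = 0.0197) and 0.48 for Fgfr4 (adjusted p = 0.000772). The difference of Fgfr3 missed the threshold with quantile normalization and without dKO replicate 2, dCD replicate 1 or dCD replicate 3. Of all tested genes 69.3% passed the direct test, so passing it does not set these genes apart.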

How the results depend on the processing

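Over 423 alternative values of the 24 pairs of a ligand or receptor gene and a comparison, 385 kept direction and side of the threshold, 35 missed a threshold that the main value passed, 2 passed one that it missed, and 1 changed sign (Fgf8 in dCD against WT cells, -0.0060 without WT replicate 2, in a range up to 0.32 over the left-out libraries). Over 2070 values of 116 pairs of other genes followed the counts were 1967, 91, 9 and 3, the sign changes being Fgf5 in dCD against WT cells, -0.020 with quantile normalization and -0.027 to 0.10 over the left-out libraries, the lowest without dCD replicate 2, and Fgf13 in dKO against WT cells, -0.13 to 0.10 over the left-out libraries, the highest without dKO replicate 1. Misses of the 2-fold threshold are among these counts. The cause of the shifts was not tested.

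With the 2-fold threshold, which is stricter by construction, 3, 1 and 4 of the 8 genes were called in dKO against WT, dCD against WT and dKO against dCD cells, and 2249, 1123 and 1774 of all tested genes. With a minimum of 5 TPM 5 genes were called in dKO against dCD cells, since Fgf8, Fgfr3 and Fgfr4 were then not tested. Leaving out 1 library at a time gave 5 to 6, 3 to 6 and 7 to 8 genes in the same comparisons, the 3 being without dCD replicate 1, and 11084 to 11672, 8717 to 9382 and 10620 to 11259 of all tested genes. By recovered reads, without scaling by length, the shares of Fgfr1, Fgfr2, Fgfr3 and Fgfr4 were 86.4%, 10.9%, 1.38% and 1.40% in dKO, 81.0%, 17.0%, 1.41% and 0.581% in dCD, and 90.7%, 6.72%, 1.24% and 1.35% in WT libraries.

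Libraries with the same replicate number did not deviate together over all tested genes (correlation -0.0494 to 0.0424, 0 of 9 pairs over 0.1). This check cannot exclude a small shared effect or one in few genes, and the main fit used no pairing. With the replicate block 6, 6 and 8 of the 8 genes and 11533, 9273 and 11114 of all genes were called. Depth limits Fgf8, Fgfr3 and Fgfr4 most.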
